A study of Homo sapiens with 4 samples.

Results

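The 8 genes GYPB, GYPC, GYPE, SLC4A1, EPB41, EPB42, ANK1 and RHAG encode proteins of the red cell membrane, and they were followed here in K562 cells expressing the fusion gene RUNX1::ERG. They were chosen for their function, with earlier results of these data known, by matching NCBI gene numbers to symbols. They are 8 of the 25702 genes counted. K562 is an established line from a human chronic myeloid leukemia that keeps erythroid features. Cells were transiently transfected with the LeGO-iG2 plasmid carrying RUNX1::ERG, or with the same plasmid without an insert (empty vector), and each group has 2 biological replicates. The plasmid also encodes green fluorescent protein, and both groups were otherwise untreated. Whether transfected cells were sorted before RNA extraction was not given in the sources used here, so each library may hold both transfected and untransfected cells. In bulk RNA, a change in the number of cells making a transcript and a change in its amount per cell cannot be told apart.

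A red cell keeps its shape through a mesh of spectrin and actin under the lipid bilayer. The mesh is tied to the membrane at ankyrin complexes, which hold band 3 and the Rh proteins, and at junctional complexes, where protein 4.1 binds glycophorin C. Glycophorins coat the cell with sialic acid and carry blood group antigens. Erythroid precursors build up these proteins in the course of maturation, and inherited loss of several of them causes spherocytosis or elliptocytosis.

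Library totals ran from 59695387 to 82352144 counts over the 4 libraries. Even numbers made up 66.7% to 68.9% of the counts from 1 to 10, so both mates of a pair were probably counted and independent fragments are fewer than these totals. ERG counts were 80443 and 27218 in the RUNX1::ERG replicates, against 4 in both empty vector ones, so the libraries matched their labels. RUNX1 stood at 78.6 and 49.0 normalized CPM in empty vector libraries and at 786 and 400.2 with RUNX1::ERG. Normalized CPM are counts as a rate of the library total, after TMM scaling of the totals. The fusion transcript was therefore more abundant in RUNX1::ERG replicate 1, by 2.52 times for ERG and 1.96 times for RUNX1. All 12 erythroid markers listed for K562, globin genes among them, were detected. With the empty vector their summed level was 12208 and 12898 normalized CPM, and with RUNX1::ERG it was 14495 and 13352. HBE1 alone held 6617 and 6394 of this with the empty vector, and 8412 and 7318 with RUNX1::ERG.

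None of the 8 genes passed an adjusted p of 0.05 between RUNX1::ERG and the empty vector when tested by edgeR's quasi-likelihood method, adjusted after Benjamini and Hochberg over the 15394 genes tested. At an unadjusted p under 0.05, 3 of them passed. Among all tested genes the same test called 4.79%, and 18.0% had an unadjusted p under 0.05. The DESeq2 Wald test and limma voom called none of the 8 either. With the replicate number as a block in edgeR, 2 of the 8 were called, GYPC lower and RHAG higher. All 8 passed the filter on low counts, and all had counts in every library. The fitted change was upward for 4 genes (RHAG, GYPB, EPB41 and ANK1) and downward for 4 (GYPE, GYPC, EPB42 and SLC4A1). Log2 fold changes of RUNX1::ERG over the empty vector ran from -0.59 for SLC4A1 to 0.36 for RHAG, with a median of 0.02, against a median of 0.00 over all tested genes. The groups did not overlap in 6 of the 8 genes, 3 higher and 3 lower. Across all tested genes 47.2% had groups that did not overlap (25.1% higher and 22.1% lower), so 2 libraries against 2 separate often. No gene of the 8 changed by 2-fold, and the 95% intervals given for each gene are not adjusted for the number of genes.

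**Figure D1:**
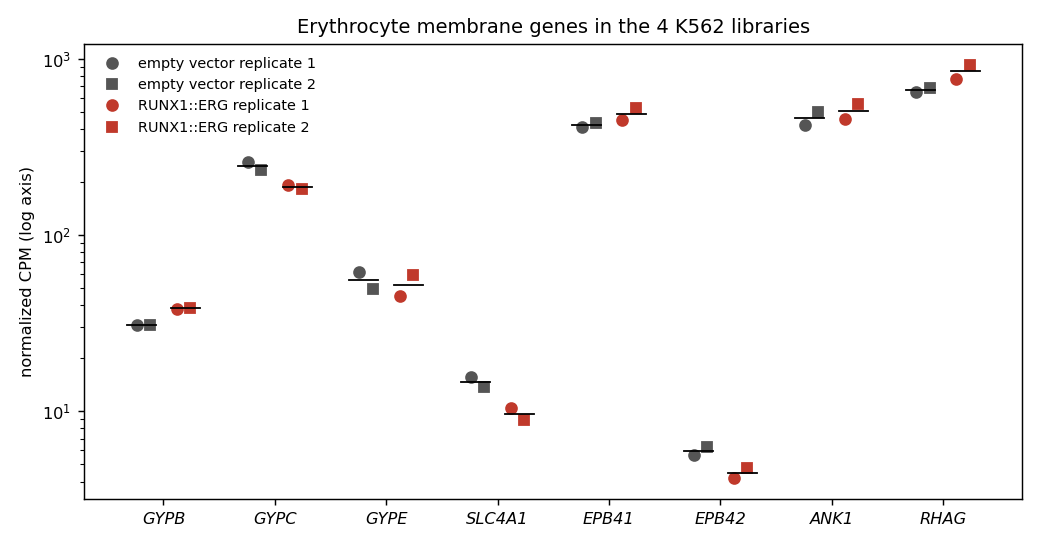
Normalized CPM on a log axis of each of the 8 genes in the 4 libraries. Circles are replicate 1 and squares replicate 2, gray for the empty vector and red for RUNX1::ERG, and a black line marks the mean of each group. Levels span from about 4.18 for EPB42 to 927 for RHAG, and the distance between genes is far wider than that between groups.

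GYPC was the most abundant of the 3 glycophorin genes among the 8. It encodes glycophorins C and D, the anchor of protein 4.1 at the junctional complex, and lies on chromosome 2 of GRCh37 (127413709 to 127454243, plus strand). GYPC stood at 260.3 and 234 normalized CPM in empty vector replicates 1 and 2, and at 193 and 182 in RUNX1::ERG replicates 1 and 2. Both RUNX1::ERG libraries were below both empty vector libraries. edgeR gave it a log2 fold change of -0.40 ± 0.15 (SE), with an adjusted p of 0.18, and its 95% interval ran from 0.60-fold to 0.95-fold. With the replicate number as a block GYPC passed (adjusted p = 0.046 from edgeR).

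GYPB encodes glycophorin B, carrier of the S and s antigens, on chromosome 4 (144917257 to 144940533, minus strand). GYPB stood at 31.1 and 30.8 normalized CPM in empty vector libraries and at 38.0 and 38.8 with RUNX1::ERG. These were the closest replicates of the 8 genes, and the groups did not overlap. In edgeR this amounted to 0.31 ± 0.17 (SE) on the log2 scale, at an adjusted p of 0.39 and a 95% interval from 0.96-fold to 1.61-fold.

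GYPE is a further copy in the MNS gene family, on chromosome 4 (144792017 to 144826716, minus strand). GYPE was at 62.0 and 49.6 normalized CPM in empty vector libraries and at 45.0 and 59.3 with RUNX1::ERG. The groups overlapped, and the replicates of each group lay farther apart than the group means. On the log2 scale the change came to -0.10 ± 0.19 (SE), with edgeR's adjusted p at 0.86 and a 95% interval from 0.70-fold to 1.26-fold.

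GYPB and GYPE arose by duplication. How close the copies are is shown by the windows around the transcription starts of GYPB (chr4:144019296-144019589) and GYPE (chr4:143905516-143905809), from RefSeq on GRCh38.p14, minus strand. They are printed 5′ to 3′ so that the extent of the duplication can be read, with the bases that differ between the copies in capitals.

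GYPB: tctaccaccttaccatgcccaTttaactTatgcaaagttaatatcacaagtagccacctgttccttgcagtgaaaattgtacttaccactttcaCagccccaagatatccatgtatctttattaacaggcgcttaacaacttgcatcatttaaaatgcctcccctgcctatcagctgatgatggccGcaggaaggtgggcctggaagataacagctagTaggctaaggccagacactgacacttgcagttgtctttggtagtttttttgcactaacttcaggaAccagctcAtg
GYPE: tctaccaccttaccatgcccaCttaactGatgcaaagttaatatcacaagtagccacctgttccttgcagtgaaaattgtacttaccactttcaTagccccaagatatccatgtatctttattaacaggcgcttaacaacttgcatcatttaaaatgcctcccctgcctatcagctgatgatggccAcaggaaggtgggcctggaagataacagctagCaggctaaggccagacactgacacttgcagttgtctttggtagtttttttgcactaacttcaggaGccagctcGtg

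Over the 294 bases compared without gaps, 287 were equal and 7 differed, an identity of 97.6%. The pair of windows and the offset with the most equal bases were chosen. The GYPB stretch is therefore not the GYPB window read for promoter motifs. The transcripts could nevertheless be told apart over most of their length at the length of 1 read. Of the 2634 distinct stretches of 150 bases in the GENCODE transcripts of GYPB, 18 (0.68%) also occurred unchanged in a transcript of another gene. None of the 2003 stretches of GYPE did. This comparison asked for perfect matches only, and how reads that fit several copies were counted was not given in the sources used here.

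At the ankyrin complex, SLC4A1 had the lowest fold change of the 8 genes. It encodes band 3, the chloride and bicarbonate exchanger that is the most abundant protein of the red cell membrane, and lies on chromosome 17 (42325758 to 42345509, minus strand). SLC4A1 stood at 15.6 and 13.7 normalized CPM in empty vector libraries and at 10.5 and 8.94 with RUNX1::ERG, from 938 and 968 against 884 and 643 counts. The groups did not overlap. edgeR gave it a log2 fold change of -0.59 ± 0.21 (SE), with an adjusted p of 0.17 and a 95% interval from 0.48-fold to 0.92-fold.

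EPB42 encodes protein 4.2, a catalytically inactive relative of the transglutaminases that links band 3 to ankyrin, on chromosome 15 (43489425 to 43513216, minus strand). EPB42 was the rarest of the 8, with 340 and 443 counts with the empty vector and 352 and 345 with RUNX1::ERG. In normalized CPM it stood at 5.65 and 6.28 against 4.18 and 4.80, without overlap. In edgeR this amounted to -0.41 ± 0.26 (SE) on the log2 scale, at an adjusted p of 0.47 and a 95% interval from 0.51-fold to 1.12-fold. This was the widest interval among the 8 genes. A noncoding gene annotated on the same strand shares 447 bases of exon with EPB42, and 9.24% of its 150-base stretches occurred in a transcript of that gene.

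ANK1 encodes erythroid ankyrin, the bridge from band 3 to beta spectrin, on chromosome 8 (41510739 to 41754259, minus strand). ANK1 was at 421 and 501 normalized CPM in empty vector libraries and at 459 and 556 with RUNX1::ERG. The groups overlapped, and replicate 2 was above replicate 1 in each. A noncoding gene on the opposite strand held 4.65% of the 150-base stretches of ANK1. On the log2 scale the change came to 0.14 ± 0.16 (SE), with edgeR's adjusted p at 0.73 and a 95% interval from 0.86-fold to 1.41-fold.

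RHAG encodes the Rh-associated glycoprotein, a gas and ammonium channel without which the Rh antigens do not reach the surface. It lies on chromosome 6 (49572888 to 49604552, minus strand). RHAG stood at 646 and 681 normalized CPM in empty vector libraries and at 773 and 927 with RUNX1::ERG. Both RUNX1::ERG libraries were above both empty vector libraries, and replicate 2 was the higher in each group. edgeR gave it a log2 fold change of 0.36 ± 0.14 (SE), with an adjusted p of 0.22 and a 95% interval from 1.03-fold to 1.60-fold. This was the highest fold change of the 8, and without RUNX1::ERG replicate 2 the log2 value was 0.20. With the replicate number as a block RHAG passed (0.35, adjusted p = 0.036 from edgeR).

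EPB41 encodes protein 4.1, which locks spectrin to actin and to glycophorin C, and lies on chromosome 1 (29213603 to 29446558, plus strand). EPB41 was at 408 and 431 normalized CPM in empty vector libraries and at 451 and 527 with RUNX1::ERG. The groups did not overlap, but the fold change was small, at a log2 value of 0.22 ± 0.15 (SE; edgeR adjusted p = 0.49). Its 95% interval ran from 0.93-fold to 1.46-fold, and without RUNX1::ERG replicate 2 the log2 value was 0.09. Overlapping transcripts of TMEM200B held 1.97% of the 150-base stretches of EPB41. Many tissues use EPB41, so its RNA is not specific to erythroid cells.

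Dividing each level by the length of all annotated exons of the gene allowed the 8 genes to be ordered. With the empty vector RHAG came first, with a mean of 252 normalized CPM per kb, followed by GYPC at 68.5, ANK1 at 41.9, GYPE at 27.8, EPB41 at 21.0 and GYPB at 16.2. SLC4A1 and EPB42 were far below, at 2.86 and 2.03. No neighbours in this order overlapped between empty vector libraries. With RUNX1::ERG the order was kept, but GYPC and ANK1 came to overlap, at means of 51.9 and 46.2, and so did GYPE and EPB41, at 26.0 and 24.5. The length counts every exon of every isoform, which lowers the value of genes with many isoforms such as EPB41. Within the ankyrin complex, RHAG and ANK1 transcripts were abundant while those of band 3 and protein 4.2 were scarce in K562 cells with either plasmid.

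**Figure D2:**
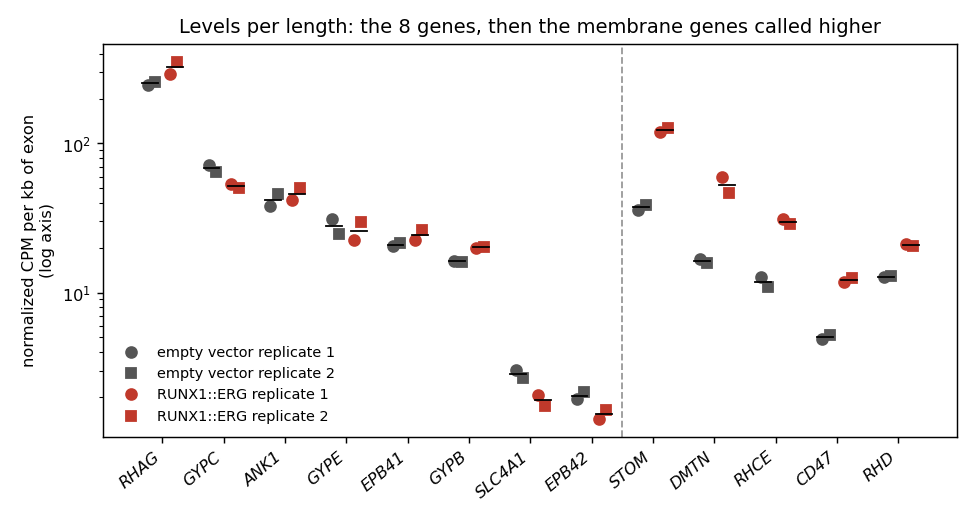
Normalized CPM per kb of annotated exon, on a log axis, for the 8 genes in order of their empty vector mean and, right of the dashed line, for the 5 other red cell membrane genes called higher. Circles are replicate 1 and squares replicate 2, gray for the empty vector and red for RUNX1::ERG, with black lines at group means. RHAG is the most abundant per length throughout, while STOM moves from 37.3 to 123, above GYPC.

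The promoters of 6 of the 8 genes, from 250 bases before to 50 after the transcription start, were read from RefSeq on GRCh38.p14. SLC4A1 and ANK1 were not matched. Only the first listed window of each gene was read, although GYPB and EPB41 have 2 each. All 6 held letters bound by GATA factors (AGATAA or its variant TGATAA, the form AGATAG or its variant TGATAG, on either strand), which occurred in 25.5% of 27305 promoters. The RUNX letters TGTGGT or their variant TGCGGT were found in GYPC alone among the 6, against 19.4% of all promoters. The ETS letters CNGGAAG were found in GYPB, GYPE and EPB42, against 34.0%. The letters CCNCNCCC, a CACC box of the kind bound by KLF1, were found in GYPC, EPB41, EPB42 and RHAG, against 55.1%, and some of these matches overlap each other. A match is a string of letters and not evidence of binding. The windows of RHAG (chr6:49636790-49637089), the highest of the 8 genes in expression, and of EPB42 (chr15:43220969-43221268), the lowest, are printed 5′ to 3′ from the minus strand, with GATA and ETS matches in capitals.

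RHAG: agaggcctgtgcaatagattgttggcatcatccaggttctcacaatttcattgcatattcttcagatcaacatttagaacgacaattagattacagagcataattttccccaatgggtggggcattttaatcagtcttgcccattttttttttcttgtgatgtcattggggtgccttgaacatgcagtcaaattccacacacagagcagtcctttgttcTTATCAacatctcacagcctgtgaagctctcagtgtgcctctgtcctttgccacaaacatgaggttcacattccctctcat
EPB42: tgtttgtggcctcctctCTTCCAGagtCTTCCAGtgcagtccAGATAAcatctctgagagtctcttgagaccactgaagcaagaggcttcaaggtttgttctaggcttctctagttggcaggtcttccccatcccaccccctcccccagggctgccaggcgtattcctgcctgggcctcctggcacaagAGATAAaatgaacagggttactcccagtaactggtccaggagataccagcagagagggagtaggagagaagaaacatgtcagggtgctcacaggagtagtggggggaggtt

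RHAG has a single GATA match, 31 bases before the start, and neither RUNX nor ETS letters. EPB42 has 2 of each of the GATA and ETS matches, with GATA letters 208 and 61 bases before the start. GATA letters are thus present at both ends of the range of expression.

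Around these 8 genes, other components of the membrane did change. Of 57 further red cell membrane genes in 3 lists (the spectrin-actin skeleton, the band 3 and Rh complexes, and other surface proteins), 54 were tested. By edgeR's quasi-likelihood test 5 of these rose and none fell at an adjusted p of 0.05, against 3.64% of all tested genes called higher and 1.15% called lower. Their median log2 fold change was 0.19, against 0.00 over all tested genes. The lists were chosen with earlier results of these data known, so these shares are descriptive and not an independent test. The 3 untested genes had at most 8 counts in a library. The number called depended on the processing and on single libraries, as did that of all genes. It was 16 without the filter on low counts, where 1500 of all 20312 tested genes were called. DESeq2 called 11, and 1194 of all genes. As reported, 737 of all 15394 tested genes were called. Genes called lower appeared in these alternatives too, with 3 lacking the filter, where 538 of all genes were lower, and 1 by DESeq2, where 398 were. Leaving out any library also brought genes called lower.

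In the band 3 and Rh complexes, 4 of 11 tested genes rose (36.4%, against 3.64% of all tested genes). The list had a median log2 fold change of 0.55. STOM, which encodes the raft protein stomatin, was at 115 and 124 normalized CPM in empty vector libraries and at 382 and 404 with RUNX1::ERG. In edgeR this amounted to 1.72 ± 0.15 (SE) on the log2 scale, at an adjusted p of 0.00013. CD47, the integrin-associated protein that sits in the Rh complex and protects cells from phagocytosis, was at 40.4 and 42.5 normalized CPM and rose to 97.2 and 103. On the log2 scale the change in CD47 came to 1.27 ± 0.16 (SE), with edgeR's adjusted p at 0.0012. Stomatin and CD47 are not confined to red cells, and platelets carry both.

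Both genes of the Rh antigens, which need RHAG as a partner, rose. RHCE, which encodes the C and E antigens, stood at 31.1 and 26.4 normalized CPM in empty vector libraries and at 75.3 and 69.8 with RUNX1::ERG. edgeR gave RHCE a log2 fold change of 1.34 ± 0.17 (SE), with an adjusted p of 0.0016. RHD, which encodes the D antigen, stood at 41.8 and 42.6 normalized CPM and rose to 70.0 and 67.8, a log2 fold change of 0.71 ± 0.16 (SE; edgeR adjusted p = 0.031). The call of RHD was lost when empty vector replicate 1 was left out (adjusted p = 0.053), as when RUNX1::ERG replicate 1 (0.14) or 2 (0.065) was, with log2 fold changes from 0.68 to 0.72 with each library left out. Both genes are near copies of each other, although only 59 of their 150-base stretches were identical, 1.41% for RHD and 1.80% for RHCE. Summed, they had a log2 fold change of 0.99 ± 0.15 (SE; edgeR adjusted p = 0.0046), an alternative chosen after seeing the data. A test of the difference between the changes of RHCE and RHAG was not run.

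The other genes of these complexes did not pass in the fit reported, though XK and KEL did with the replicate block (adjusted p = 0.033 and 0.035 from edgeR). XK and KEL, whose proteins are linked by a disulfide bond and carry the Kx and Kell antigens, had log2 fold changes of 0.55 (adjusted p = 0.092) and 0.48 (adjusted p = 0.18) from edgeR. XK was at 110.2 and 94.6 normalized CPM in empty vector libraries and at 137 and 163 with RUNX1::ERG, and passed without the filter on low counts (adjusted p = 0.037).

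In the spectrin-actin skeleton, 1 of 14 tested genes rose (7.14%, against 3.64% of all tested genes), a share that rests on a single gene. DMTN encodes dematin, which bundles actin and joins the junctional complex to the glucose transporter, and was at 76.4 and 71.6 normalized CPM in empty vector libraries and at 268 and 209.6 with RUNX1::ERG. For DMTN this amounted to 1.69 ± 0.17 (SE) on the log2 scale in edgeR, at an adjusted p of 0.00044. SPTB, beta spectrin, did not pass and was at 204 and 231 against 181 and 206 normalized CPM, a log2 fold change of -0.16 (adjusted p = 0.66 from edgeR), and ADD2, beta adducin, had a log2 fold change of -0.36 (adjusted p = 0.27 from edgeR). An overlapping gene held 20.8% of the 150-base stretches of SPTB, so part of its count is uncertain. None of the 29 tested genes of the list of other surface proteins passed, where 4.79% of all tested genes did.

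**Figure D3:**
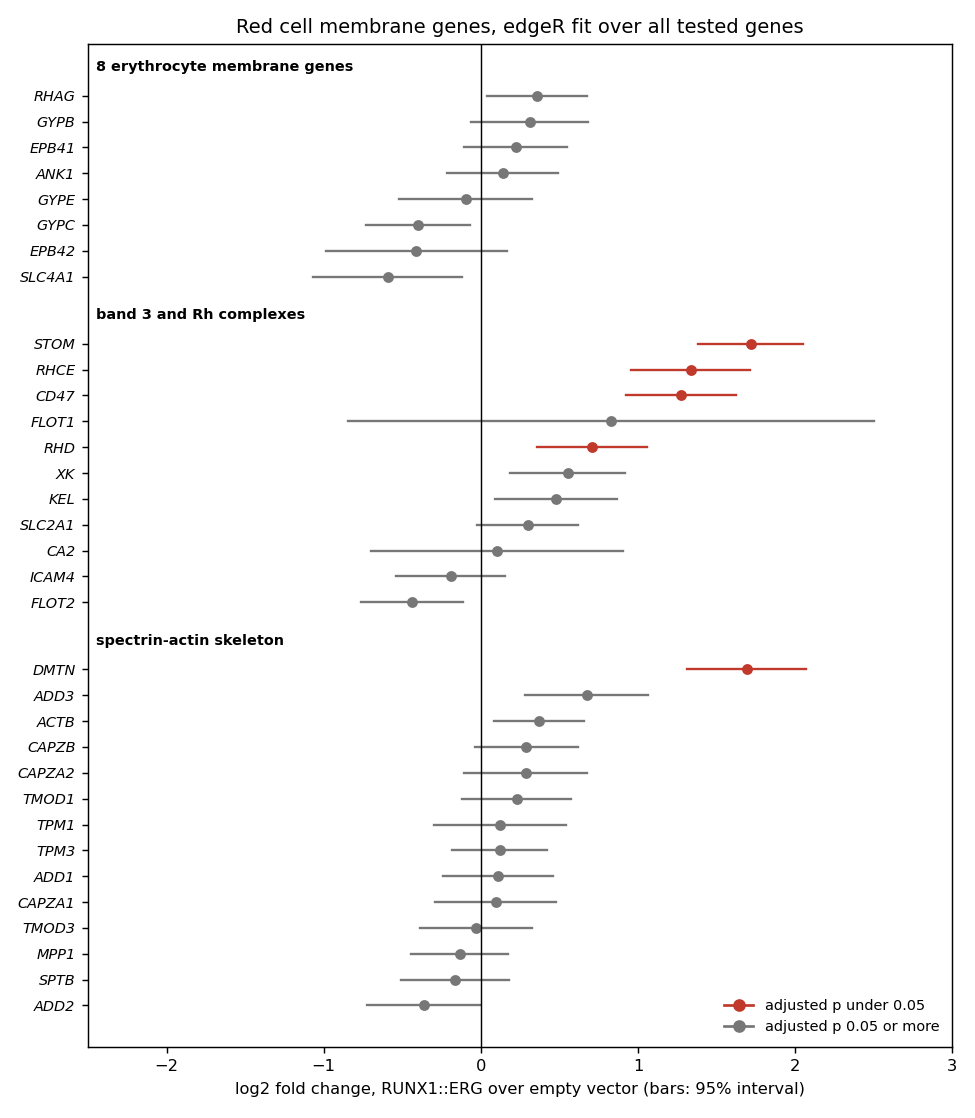
Log2 fold change of RUNX1::ERG over the empty vector with its 95% interval (bars, not adjusted for the number of genes) for the 8 genes and for the reported genes of the band 3 and Rh complexes and of the spectrin-actin skeleton. Red marks an edgeR adjusted p below 0.05 and gray all others. The 8 genes lie between -0.59 and 0.36, while STOM, DMTN, RHCE, CD47 and RHD lie between 0.71 and 1.72.

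These rises went along with other markers. The summed level of 13 megakaryocyte markers was 106 and 107 normalized CPM with the empty vector and 537 and 467 with RUNX1::ERG. Of the 13, 8 were tested and 6 called higher, where 3.64% of all tested genes were, and GP1BB, GP9 and TREML1 had at most 3 counts in every library. Of the 12 erythroid markers, 2 were called higher and none lower by edgeR's quasi-likelihood test, against 3.64% and 1.15% of all tested genes. Their fitted change was upward for 9 and downward for 3. HBZ narrowly missed being called lower, at 966 and 1100 against 753 and 615 normalized CPM (log2 fold change -0.59, edgeR adjusted p = 0.05003). Summed markers of fibroblasts and endothelium were at 9.35 and 9.26 against 48.3 and 47.0, those of monocytes and granulocytes at 7.79 and 10.7 against 22.5 and 20.8, and those of T and B cells at 36.7 and 38.3 against 27.1 and 29.1 normalized CPM. Of these, KDR and MS4A1 had at most 3 counts in every library. All libraries are labelled K562, a cell line, so these sums are levels of marker genes and not amounts of such cells. The T and B cell sum was mostly CD3D, at 32.5 and 34.7 against 20.5 and 23.6 normalized CPM. CD3G, of the same list, was at 1.73 and 2.06 against 4.22 and 3.99. Among monocyte and granulocyte markers, 2 of 4 tested were called higher, LYZ and CD14, and LYZ held most of the sum. ITGAM (log2 fold change -0.99) and MPO (-0.86) were fitted lower, from at most 19 counts in a library. Among fibroblast and endothelium markers, 2 of 4 tested were called higher, COL1A1 and PECAM1. There CDH5 (2.96) and COL1A2 (0.11) did not pass. What drives these levels was not tested.

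Relatives of the membrane genes used by other tissues were compared as well. Of 20 such paralogs 15 were tested, of which 2 (13.3%, against 3.64% of all tested genes) rose by edgeR's quasi-likelihood test, around a median log2 value of 0.05, and 5 were too low to test, with no library above 10 counts. SPTAN1, the alpha spectrin of other tissues, was at 24.2 and 18.2 normalized CPM in empty vector libraries and at 36.2 and 36.6 with RUNX1::ERG, a log2 fold change of 0.78 ± 0.20 (SE; edgeR adjusted p = 0.049). The call of SPTAN1 was lost with library totals alone (adjusted p = 0.058) and when empty vector replicate 2 (0.14), RUNX1::ERG replicate 1 (0.16) or RUNX1::ERG replicate 2 (0.092) was left out. TGM5, a transglutaminase of skin related to EPB42, rose from 7 and 0 to 302 and 217 counts (adjusted p = 0.0015 from edgeR). Ankyrin and band 3 relatives did not pass: SLC4A2, the band 3 relative of many tissues, was at 612 and 668 against 714 and 612 normalized CPM, well above SLC4A1, and ANK3 was at 44.6 and 34.8 against 43.6 and 47.7.

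The 8 genes were also read within each group. RUNX1::ERG replicate 2, with less fusion transcript, was above replicate 1 for 6 of the 8 genes, by log2 differences of up to 0.40 for GYPE, and below it for GYPC and SLC4A1. Between the empty vector libraries, which lack the fusion, replicate 2 was also above replicate 1 for EPB41, EPB42, ANK1 and RHAG. It was likewise below replicate 1 for GYPC and SLC4A1. GYPE and GYPB differed the other way there, at log2 values of -0.32 and -0.013. A trend with the level of the fusion cannot be tested over 2 libraries.

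**Figure D4:**
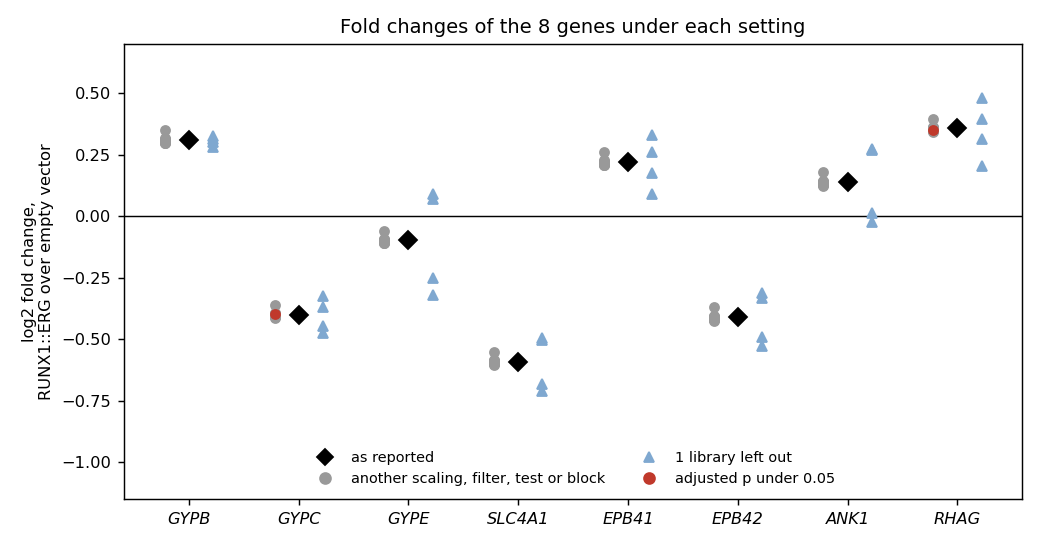
Log2 fold change of each of the 8 genes as reported (black diamonds), under another scaling, filter, test or replicate block (gray circles) and with 1 library left out (blue triangles), with red for an adjusted p under 0.05. GYPB, GYPC, SLC4A1, EPB41, EPB42 and RHAG stay on 1 side of 0, while GYPE and ANK1 cross it, and the only red points are those of GYPC and RHAG with the replicate block.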

How the data were processed

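Whole transcriptome sequencing was done as paired-end reads from poly(A)-enriched libraries prepared by Novogene. The authors deposited raw counts per gene, one file for each library, listed by NCBI gene number. The submitters' processing notes name HISAT2 2.2.1, featureCounts 2.0.1 and hg19; strand, annotation and pair settings were not given in the sources used here, so antisense and overlapping genes are uncertain. Gene numbers were joined to RefSeq symbols of GRCh38.p14 (92.2% matched), and gene positions and exon lengths were taken from GENCODE v44 on GRCh37.

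The test was edgeR 4.0.16 in R 4.3.3: its filter on low counts (15394 genes kept), TMM scaling, quasi-likelihood test and Benjamini-Hochberg adjustment over all genes kept, with 0.05 as the threshold. The standard error is the size of the log2 fold change divided by the square root of F. Alternatives were other scalings and filters, DESeq2 1.42.0, limma 3.58.1 voom, halved counts, a replicate block, RHD and RHCE summed and leaving out each library. The procedure was tested on simulated data. An exact permutation test of 2 libraries against 2 cannot go below p = 0.333. A count of 0 allows up to 3 counts, or 0.0364 to 0.0503 CPM by library, for counting error only. This bound takes counts as independent, and is higher if both mates of a pair were counted.

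The members and lists were chosen with earlier results of these data known. Named genes were the 8 members, ERG and RUNX1, called genes of the other lists, and SPTB, RHD, RHCE, XK, KEL, ADD2, DMTN and STOM; the genes nearest in pattern to called members were to be named too, but no member was called. Some genes are not reported here, and list counts leave them out. SLC4A2, ANK3, CD99 and the marker genes were named after their values were seen. The replicates are described as biological.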

Additional observations from a re-analysis of the deposited data

How the results depend on the processing

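None of the 8 genes was called under any other scaling, filter or test, with halved counts or with a library left out, and 6 of them kept their direction throughout. GYPE turned to 0.07 without empty vector replicate 1 and to 0.088 without RUNX1::ERG replicate 1, and ANK1 to -0.023 without RUNX1::ERG replicate 2. With each library left out, log2 fold changes ran from -0.32 to 0.09 for GYPE and from -0.02 to 0.27 for ANK1. With the replicate block 2 of the 8 were called, GYPC (-0.40, adjusted p = 0.046 from edgeR) and RHAG (0.35, adjusted p = 0.036), as were 18 of the other red cell membrane genes (14 higher, 4 lower), 4 paralogs and 1733 of all genes. No label ties equal replicate numbers to a common batch, so the block was kept as an alternative only. Libraries with equal numbers did tend to deviate alike from their group means, with r = 0.35 across genes. With 2 libraries a group, pairing unequal numbers only reverses the sign of r, so r cannot show a shared batch. Whether they shared a batch was not tested, and the calls of GYPC and RHAG depend on this choice. All called genes numbered 737, against 1500 without the filter and 1194 by DESeq2, and 286 to 1336 with each library left out (1227 without empty vector replicate 1, 1336 without replicate 2, 286 without RUNX1::ERG replicate 1). Called red cell membrane genes outside the 8 numbered 16 without the filter, 11 by DESeq2 and 6 to 13 with each library left out, and called paralogs 1 to 2 (1 without RUNX1::ERG replicate 1), against 2 as reported and 1 with library totals or when each library had to reach 10 counts. With a library left out, the arm with 1 library was assumed to vary like the other. The cause of these differences was not tested. With 2 libraries a group, changes as small as those of the 8 genes are hard to detect, and a missed threshold does not show that a gene was unchanged.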

Other observations

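CD99, which encodes the antigen of the Xg blood group system that is shared by many tissues, stood at 1.03 and 0.89 normalized CPM with the empty vector, at 22.7 in RUNX1::ERG replicate 1 and at 0.74 in RUNX1::ERG replicate 2. Its counts were 62, 63, 1917 and 53. Among all 25702 genes it was the only one above 5 normalized CPM in RUNX1::ERG replicate 1 and over 5 times higher there than in each of the other libraries. By the same measure there were 13 such genes in empty vector replicate 1, none in empty vector replicate 2 and none in RUNX1::ERG replicate 2. CD99 did not pass the test between the groups (log2 fold change 3.61, standard error 1.05, adjusted p = 0.082 from edgeR).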
